A study of Arabidopsis thaliana with 6 samples.

Results

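The transcripts of 7 genes for calcium-binding EF-hand proteins were examined in Arabidopsis thaliana plants labelled as wild type or as camta3 mutants. The 7 genes were CML37, CML38, CML41, CML42, CML43, AT2G41090 and AT2G41410. Members were taken as the probe sets that the platform annotation assigns to exactly these names, which gave 1 probe set for each of the 7 genes, of 13356 genes named singly and 22746 probe sets tested in all. Other genes are called measured below where the annotation names them singly on a probe set. A gene not called measured may still be on the array. The loci behind the 5 symbols are AT5G42380 for CML37, AT1G76650 for CML38, AT3G50770 for CML41, AT4G20780 for CML42 and AT5G44460 for CML43. No coordinates are given, since no genome build is named for these data.

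Plants were 3 weeks old and fell into 3 groups of 2 arrays, namely wild type and the mutants camta3-1 and camta3-2. No treatment, ecotype or tissue is named in the labels, nor is the kind of lesion in either allele. RNA was labelled with biotin and read on Affymetrix oligonucleotide arrays, and values were deposited on a log2 scale, 1 per probe set and array. The labels call the arrays of a group biological replicates without naming separate plants or batches. Transcript of CAMTA3 itself was not analysed here, and no check of the mutant labels against it was made. Whole-plant or tissue RNA was measured in bulk, so that fewer cells of a type and less RNA per cell cannot be told apart.

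EF-hand proteins bind calcium in a helix-loop-helix fold and change shape when they do so. Calmodulin is the best known of them, and calmodulin-like (CML) proteins are a large plant family of related sensors that are thought to pass rises of cytosolic calcium, as follow pathogen attack, wounding, touch or cold, on to target proteins. CAMTA3 is a transcription factor that binds calmodulin and holds down defence genes of the salicylic acid pathway, so it and these sensors belong to the same calcium signalling system.

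Control measures of the arrays were compared first. Array medians over all probe sets lay between 6.18 and 6.26 on the log2 scale. The log2 difference between the 3' and 5' ubiquitin control probe sets was 1.192 to 1.198 in camta3-2, 1.31 to 1.32 in camta3-1 and 1.26 to 1.33 in wild type, so the camta3-2 arrays lay below the others, and the part of this in the results was not tested. The actin difference was 3.51 to 3.55 in camta3-2, 3.41 to 3.49 in camta3-1 and 3.39 to 3.52 in wild type, so camta3-2 lay above camta3-1 and overlapped wild type. For GAPDH the ranges were 0.14 to 0.29, 0.18 to 0.45 and 0.17 to 0.46 in the same order, and they overlapped. Both measured root markers were low, with the hair-cell expansin gene EXPA7 at 4.54 ± 0.02 (log2, SD, n = 2) in wild type, 4.35 ± 0.03 in camta3-1 (n = 2) and 4.59 ± 0.06 in camta3-2 (n = 2). Both camta3-1 arrays read below all others for EXPA7, but the difference from wild type did not pass (limma, adjusted p = 0.538). EXPA18, a second root-hair expansin gene, had a log2 fold change of -0.12 for the mean of the alleles (limma, adjusted p = 0.749). Of 27 measured photosynthesis genes 0 passed (limma), with a median log2 fold change of -0.11, and the smallest p-values were those of the photosystem genes psbN at -0.59 (adjusted p = 0.0894) and psaA at -0.37 (adjusted p = 0.223). The summed level of the 27 genes was 17.09 to 17.13 in wild type, 16.92 to 17.01 in camta3-1 and 17.00 to 17.08 in camta3-2 (log2), lower on each mutant array than on either wild-type array, and its part in the results was not tested.

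The CAMTA3 mutants had higher transcript levels of AT2G41090 and AT2G41410, and this was seen in each allele. AT2G41090 was 2.41-fold and AT2G41410 1.95-fold above wild type for the mean of both alleles. The 5 genes with CML symbols did not pass the test in any comparison. Among them CML37, CML38, CML41 and CML42 had positive log2 fold changes of 0.28 to 0.42, and CML43 was at -0.09. The 2 members that rose carry only a locus name in the annotation used, which does not say whether they belong to the calmodulin-like family. The lack of a symbol is therefore not read as a split between calmodulin-like genes and others.

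Counts were read against the whole array. Groups were compared with limma, a linear model that borrows information on the spread from all probe sets, and a probe set passed at an adjusted p under 0.05 over all 22746. When the alleles were averaged, 2 of 7 members were higher than in wild type and 0 lower, where 1.15% of all probe sets were higher and 0.255% lower. In camta3-1, 2 of 7 were higher, against 0.805% of all probe sets, and 0 lower, against 0.277%. In camta3-2, 2 of 7 were higher, against 0.655%, and 0 lower, against 0.0791%. Both members were among the 0.55% of probe sets that were higher in each allele. These comparisons share the wild-type arrays, so the alleles do not give independent evidence. The median log2 fold change of the 7 members was 0.40 over both alleles, 0.23 for camta3-1 and 0.55 for camta3-2, beside -0.05, -0.04 and -0.06 over all probe sets. In sign alone, 6 of 7 members were positive for the mean of the alleles, where 37.4% of all probe sets were.

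**Figure D1:**
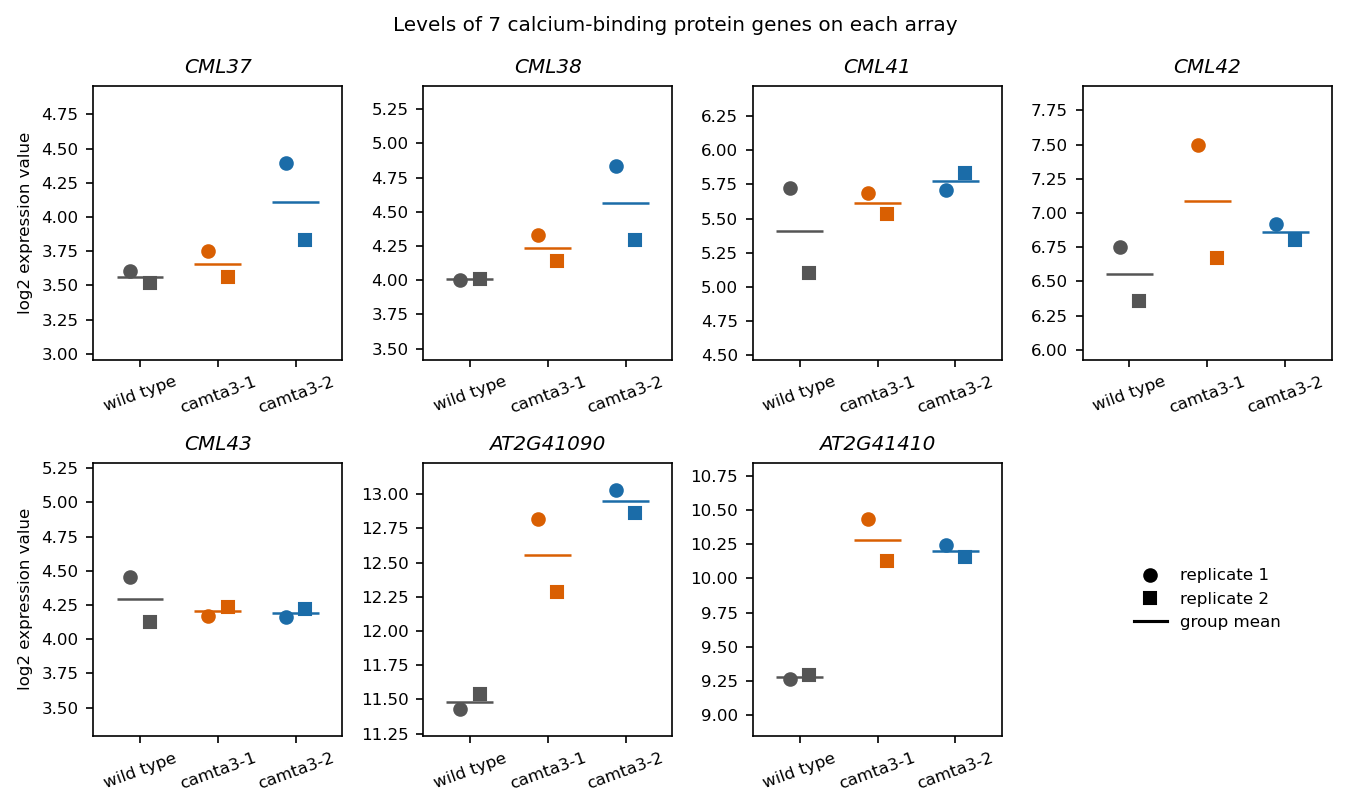
Log2 expression values (vertical axes, each spanning the same number of log2 units) of the 7 genes on each array, by group; points are arrays and horizontal lines are group means. For AT2G41090 and AT2G41410 all 4 mutant arrays lie clear of both wild-type arrays, by at least 0.75 and 0.83, while for CML37, CML41, CML42 and CML43 mutant and wild-type arrays overlap.

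AT2G41090 had the largest change of the 7. Its wild-type arrays read 11.43 and 11.54, the camta3-1 arrays 12.82 and 12.28, and the camta3-2 arrays 13.03 and 12.87 (log2). Every mutant array was therefore higher than each wild-type array, with a gap of 0.75 between the lowest mutant and the highest wild-type value. The log2 fold change for the mean of both alleles was 1.27 with a standard error of 0.16 and a 95% interval of 0.90 to 1.63 (limma, adjusted p = 0.0127). Of all probe sets, 0.668% had a positive log2 fold change at least as large. In camta3-1 the rise was 1.07 (standard error 0.18, adjusted p = 0.0457), a 2.1-fold difference, and in camta3-2 it was 1.47 (standard error 0.18, adjusted p = 0.0181), a 2.76-fold difference. The camta3-1 replicates were 0.539 apart, against 0.167 in camta3-2 and 0.105 in wild type, and the lower camta3-1 array is the second.

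AT2G41410 changed by a similar amount in both alleles, with a spread between replicates near the middle of all probe sets. Its wild-type arrays read 9.26 and 9.29, the camta3-1 arrays 10.43 and 10.13, and the camta3-2 arrays 10.24 and 10.16 (log2). The lowest mutant array was 0.83 above the highest wild-type array. The log2 fold change for the mean of both alleles was 0.96 with a standard error of 0.11 and a 95% interval of 0.70 to 1.23 (limma, adjusted p = 0.0105). It was 1.00 in camta3-1 (standard error 0.13, adjusted p = 0.0204) and 0.92 in camta3-2 (standard error 0.13, adjusted p = 0.0324). Of all probe sets, 1.14% had a positive log2 fold change at least as large. Its residual standard deviation between replicates was 0.13, at the 50.8th percentile of all probe sets, whereas that of AT2G41090 was 0.234, at the 86.9th percentile.

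Both calls rested on the pair of wild-type arrays, as did most calls over all probe sets for the mean of both alleles. Without wild type replicate 1, AT2G41090 had adjusted p = 0.206 and AT2G41410 adjusted p = 0.174 for the mean of both alleles (limma), and they had 0.134 and 0.127 when wild type replicate 2 was left out. In the unmoderated test they had adjusted p = 0.401 and 0.369, and 0 of all probe sets passed there. In camta3-1 alone the log2 fold change was 0.80 for AT2G41090 and 0.85 for AT2G41410 without camta3-1 replicate 1. AT2G41090 did not pass there when only camta3-1 and wild type were fitted (limma, adjusted p = 0.0701). Leaving out either camta3-2 array gave this same fit, as a lone array adds nothing to the estimate of the spread, and so is no further check. In camta3-2 alone neither passed without camta3-2 replicate 1 (adjusted p = 0.107 and 0.15) or replicate 2 (0.0728 and 0.104). The log2 fold changes for the mean of both alleles stayed at 1.13 to 1.40 and 0.89 to 1.04 over the 6 fits that each left out 1 array. An exact permutation test of the 4 mutant against the 2 wild-type arrays gave a two-sided p = 0.133 for each. This is the smallest value that the form of test used, which doubles the one-sided p, can give here. CML38, which did not pass in limma, had the same permutation p = 0.133.

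**Figure D2:**
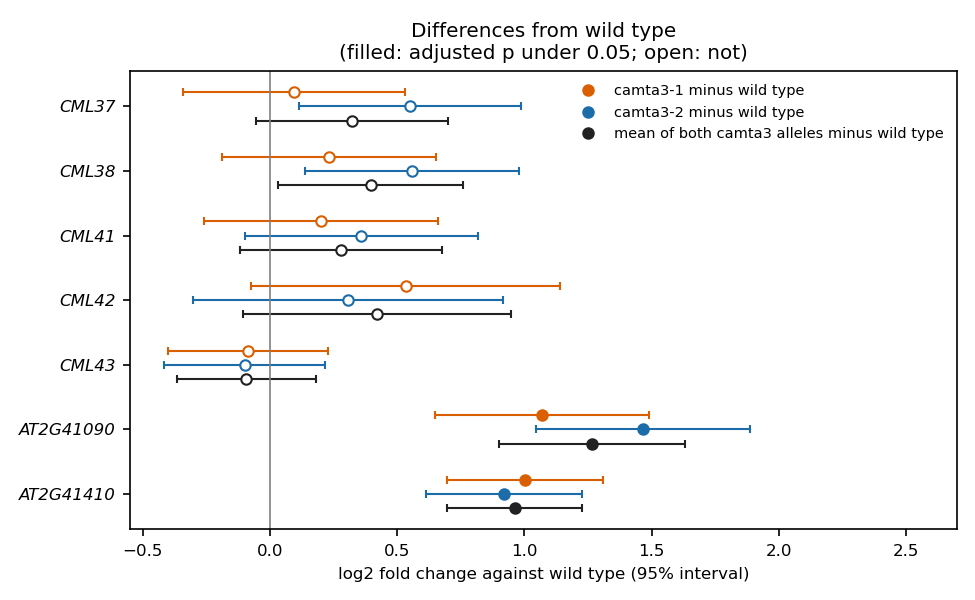
Log2 fold change against wild type (horizontal axis) of each gene for camta3-1, camta3-2 and the mean of both alleles; bars are 95% intervals of the limma fit, filled points passed an adjusted p of 0.05 and open points did not. The 6 filled points belong to AT2G41090 and AT2G41410, with means over the alleles of 1.27 and 0.96, and those of the other 5 genes lie between -0.09 and 0.42.

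CML37 and CML38 shared a pattern across the arrays that was led by camta3-2. CML37, a calmodulin-like protein known as a positive regulator of jasmonate-dependent defence against chewing insects, read 3.60 and 3.52 in wild type, 3.75 and 3.56 in camta3-1, and 4.39 and 3.83 in camta3-2 (log2). The second camta3-1 array fell within the wild-type range and so the groups overlapped. CML38, a calmodulin-like protein induced by wounding and low oxygen, read 4.005 and 4.007 in wild type, 4.33 and 4.14 in camta3-1, and 4.83 and 4.29 in camta3-2. Here all 4 mutant arrays lay above wild type, as they did for 3 of 7 members and 7.89% of all probe sets, but the smallest gap was 0.14.

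Neither gene passed. For the mean of both alleles the log2 fold change of CML38 was 0.40 with a 95% interval of 0.03 to 0.76 (limma, adjusted p = 0.335), and that of CML37 was 0.32 with an interval of -0.06 to 0.70 (limma, adjusted p = 0.462). In camta3-2 alone CML38 was at 0.56 (limma, adjusted p = 0.311) and CML37 at 0.55 (limma, adjusted p = 0.339). The first camta3-2 array decided these values, since without it the camta3-2 difference was 0.29 for CML38 and 0.27 for CML37, and that for the mean of both alleles 0.26 and 0.18. Replicates of camta3-2 were 0.54 apart for CML38 and 0.566 apart for CML37, about as much as the difference from wild type.

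CML41 and CML42 were higher on average in the mutants, and for each the replicates of 1 group were further apart than this difference. CML41, a calmodulin-like protein of plasmodesmata linked to callose deposition after bacterial flagellin is sensed, read 5.72 and 5.10 in wild type, 5.69 and 5.54 in camta3-1, and 5.71 and 5.83 in camta3-2 (log2). The wild-type arrays alone were 0.617 apart, and 1 of 4 mutant arrays lay above both. Its log2 fold change for the mean of the alleles was 0.28 with a 95% interval of -0.12 to 0.68 (limma, adjusted p = 0.552), and the value was -0.03 with wild type replicate 2 left out and 0.59 with replicate 1 left out.

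CML42, a calmodulin-like protein known from trichome branching and as a negative regulator of jasmonate-dependent defence, read 6.75 and 6.36 in wild type, 7.50 and 6.67 in camta3-1, and 6.92 and 6.80 in camta3-2 (log2). Its first camta3-1 array stood 0.825 above the second, and 3 of 4 mutant arrays exceeded the higher wild-type array. It had the widest spread between replicates of the 7, a residual standard deviation of 0.376 at the 97.3rd percentile of all probe sets. The log2 fold change for the mean of the alleles was 0.42 with a 95% interval of -0.11 to 0.95 (limma, adjusted p = 0.495). Over the fits that left out 1 array this value was 0.21 (without camta3-1 replicate 1) to 0.63 (without camta3-1 replicate 2). It was 0.22 with wild type replicate 2 left out. In camta3-1 it was 0.53, with 0.12 without camta3-1 replicate 1 and 0.95 without replicate 2 (limma, adjusted p = 0.895 and 0.0938).

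CML43, a close relative of CML42 linked to the immune response, was the 1 member with a negative log2 fold change. It read 4.46 and 4.13 in wild type, 4.17 and 4.24 in camta3-1, and 4.16 and 4.22 in camta3-2 (log2), so all 4 mutant arrays lay between the wild-type arrays. The log2 fold change for the mean of the alleles was -0.09 with a 95% interval of -0.37 to 0.18 (limma, adjusted p = 0.8), and it was 0.0713 without wild type replicate 1. A rise of CML43 above 1.13-fold lies outside that interval. For CML37, CML38, CML41 and CML42 the upper ends of the intervals were 1.62-fold, 1.69-fold, 1.60-fold and 1.93-fold, so the data do not exclude rises of those sizes.

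Some members were dim on these arrays. The mean over all arrays was above the 40th percentile of all probe sets (log2 5.33) for 4 of 7 members, which were AT2G41090, AT2G41410, CML41 and CML42. CML37, CML38 and CML43 lay below it, at means of 3.78, 4.27 and 4.23. RMA, the method that summarised the probes, shrinks differences of dim probe sets, and its part in these 3 genes was not tested.

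**Figure D3:**
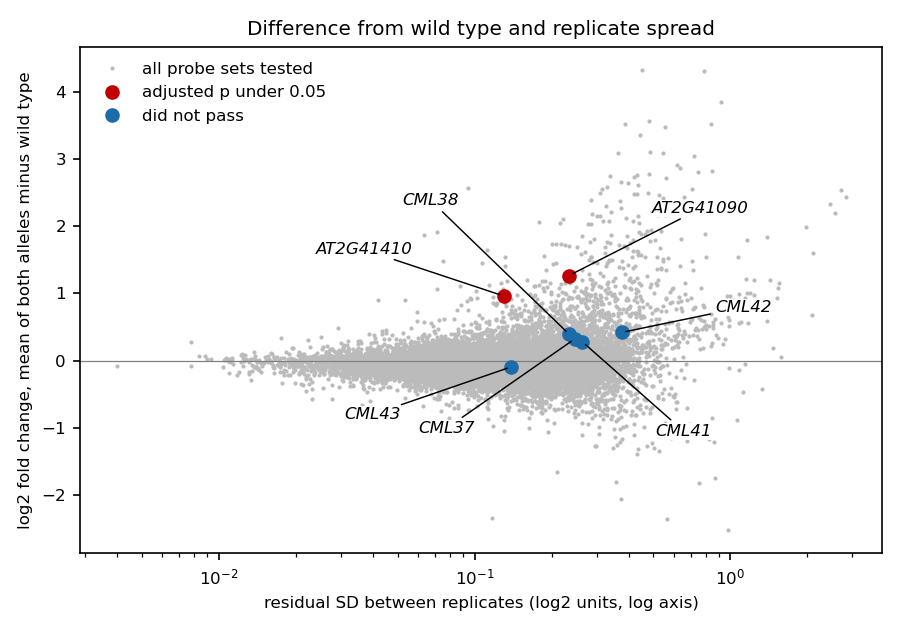
Log2 fold change of the averaged alleles against wild type (vertical axis) and residual standard deviation between replicates (horizontal, log axis) of all 22746 probe sets in grey, with the 7 genes marked. AT2G41410 and AT2G41090 lie above the bulk of probe sets of like spread, at 0.96 and 1.27, while CML37, CML38 and CML41 sit close together at residual standard deviations of 0.234 to 0.264.

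The alleles were compared with each other directly. Of the 7 members 0 passed in camta3-2 minus camta3-1, as did 0.0044% of all probe sets (limma), and 1 of 7 had an unadjusted p under 0.05, as did 6.34% of all probe sets. The unmoderated test also gave 0. The member with the small unadjusted p was CML37, whose log2 difference was 0.46 with a 95% interval of 0.02 to 0.89 (limma, adjusted p = 0.778). It was 0.17 without camta3-2 replicate 1 and 0.74 without camta3-2 replicate 2. AT2G41090 was higher in camta3-2 than in camta3-1 by 0.40, with a 95% interval of -0.03 to 0.82 (limma, adjusted p = 0.778), and by 0.67 and 0.13 without camta3-1 replicate 1 and 2. For AT2G41410 the difference was -0.08, with an interval of -0.39 to 0.22 (limma, adjusted p = 0.944). The intervals leave room for a difference of up to 1.76-fold between alleles for AT2G41090 and 1.17-fold for AT2G41410 in the direction of camta3-2. Their lower ends, in the direction of camta3-1, were 0.983-fold for AT2G41090 and 0.764-fold for AT2G41410.

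Variation among the arrays was shared by some pairs of members and not by others. The first camta3-2 array was the highest of all 6 for 3 of 7 members, which were CML37, CML38 and AT2G41090, and for 17.0% of all probe sets. The first camta3-1 array was the highest for 2, which were CML42 and AT2G41410, and for 12.1% of all probe sets. A wild-type array was the lowest for all 7 members and for 24.3% of all probe sets. Over the 6 arrays, Pearson's r was 0.973 between CML37 and CML38 and 0.944 between AT2G41090 and AT2G41410. After the group means were taken off, the same pairs had r = 0.99 and r = 0.997, and CML42 had 0.801 with AT2G41090 and 0.847 with AT2G41410. In groups of 2 these deviations are mirror images, so each such value rests on 3 differences between replicates, and the arrays share their RNA sample and normalisation. They are given as a description. CML41 and CML43 went together in the same way, with r = 0.912, which came mainly from the first wild-type array being above the second for both. The pairs named so far had the highest such values. Other pairs did not go together, with r = 0.023 for CML37 and CML41, -0.013 for CML41 and AT2G41090, and -0.4 for CML43 and AT2G41090.

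The genes with patterns most like the 2 that rose were sought among the 13512 other probe sets with 1 named gene. Likeness was the Euclidean distance over the 6 arrays after the wild-type mean was subtracted. High r, like fold changes and small p-values of the genes so picked follow from the choice and are given as a description. Nearest to AT2G41090 were AT1G15790, AT1G66090 and AT1G69730, at distances of 0.36, 0.39 and 0.40 (r = 0.979, 0.984 and 0.977 over 6 arrays). Their log2 fold changes for the mean of the alleles were 1.35, 1.12 and 1.16 (limma, adjusted p = 0.00562, 0.0354 and 0.016). Nearest to AT2G41410 were AT5G17760, AT5G36930 and AT1G03210, at distances of 0.22, 0.23 and 0.23 (r = 0.982, 0.983 and 0.984), with log2 fold changes of 0.98, 0.90 and 0.99 (limma, adjusted p = 0.0123, 0.0373 and 0.0295). The 2 genes themselves were 0.80 apart, and AT2G41410 ranked 53rd among the neighbours of AT2G41090. On the camta3-2 arrays AT2G41090 was 1.55 and 1.38 above its wild-type mean, and AT2G41410 was 0.965 and 0.878 above its own.

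**Figure D4:**
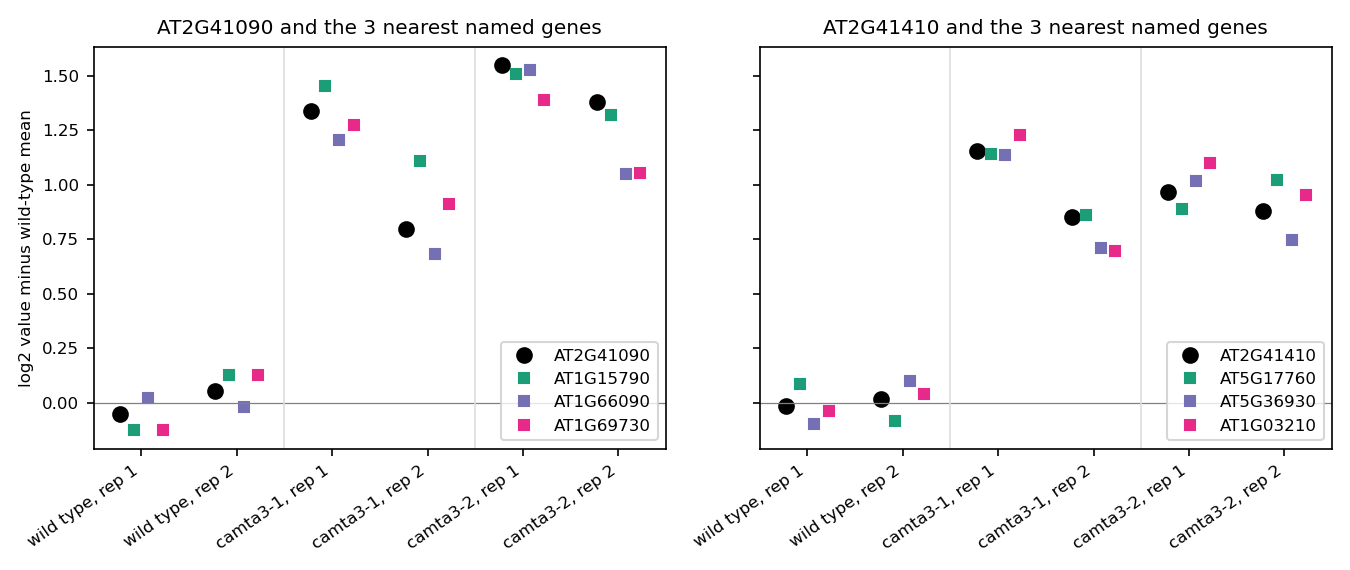
Log2 value minus the wild-type mean (vertical axis) on each array for AT2G41090 (left, black) and AT2G41410 (right, black), each with the 3 named genes at the smallest Euclidean distance (coloured squares). On the left the second camta3-1 array is the lowest mutant array for AT2G41090, and on the right all 4 mutant arrays of AT2G41410 lie between 0.85 and 1.16.

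Other genes of calcium signalling were few in the annotation used. Of 16 further calmodulin and calmodulin-like genes in the reference table, 3 were measured, which were CML23, CML30 and AT1G76640, and 0 of 3 passed in any of the 4 contrasts. Their log2 fold changes for the mean of the alleles were -0.17, -0.14 and -0.08 (limma, adjusted p = 0.509, 0.758 and 0.78), with a median of -0.14 beside -0.05 over all probe sets. Calcineurin B-like sensors, calcium-dependent kinases, the kinases that bind calcineurin B-like sensors, and calcium pumps and channels had 0 measured genes of 10, 34, 26 and 52. None of these genes was the single name of a probe set, so these families were not analysed here. Probe sets without a single named gene may hold them, and most of the calcium signalling system was not seen under a name.

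Genes near the members on the chromosome were looked at as well. AT1G76640 is the annotated neighbour of CML38. It read 3.88 and 3.98 in wild type, 3.88 and 3.87 in camta3-1, and 3.90 and 3.75 in camta3-2, so it did not share the higher camta3-2 values of CML38. Of the 28 nearest protein-coding genes, 2 on each side of each member, 15 were measured and 0 passed for the mean of the alleles (limma). Of the 4 such genes of AT2G41090, 1 was measured, and of the 4 of AT2G41410, 0, so nearly all of the 15 neighbour members that did not pass. AT2G41090 and AT2G41410 lie on the same chromosome with 35 annotated protein-coding genes between them, of which 10 were measured and 0 passed (limma), with a median log2 fold change of -0.05. TCH3, a touch-induced calmodulin-like gene, is the annotated neighbour of AT2G41090 and was not analysed here.

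Several of these sensors are known to respond to touch and wounding, and so genes listed for touch, wounding and handling were also read. Of 14 listed genes 2 were measured, and both rose for the mean of the alleles (limma, adjusted p = 0.00393 for STZ and 0.0171 for WRKY53), as did 1.15% of all probe sets. Both rose in camta3-1, and in camta3-2 STZ rose while WRKY53 did not pass (limma, adjusted p = 0.087). The zinc-finger gene STZ was at 4.92 and 5.06 in wild type, 6.56 and 6.83 in camta3-1, and 7.03 and 7.65 in camta3-2 (log2). WRKY53, a transcription factor of defence and senescence, was at 4.24 and 4.97 in wild type, 6.67 and 7.07 in camta3-1, and 5.83 and 6.51 in camta3-2. Their summed level was 5.62 to 6.01 in wild type, 7.62 to 7.96 in camta3-1 and 7.55 to 8.19 in camta3-2 (log2), and its part in the results was not tested. As WRKY53 is also a defence gene, a response to touch or wounding cannot be told apart here from a change of defence genes. The clock gene GI was at 9.73 ± 0.02 (log2, SD, n = 2) in wild type, 9.80 ± 0.10 in camta3-1 (n = 2) and 9.79 ± 0.07 in camta3-2 (n = 2), with a log2 fold change of 0.07 for the mean of the alleles (limma, adjusted p = 0.836).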

How the data were processed

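Log2 expression values per probe set were deposited by the authors, made with RMA and Partek per the submitters' processing notes, whose versions the sources used here do not give. In RMA, background is corrected, arrays are given a common distribution and probes are summarised, which shrinks differences of dim probe sets. After 64 of 22810 probe sets were left out as controls, 22746 were tested. Genes were named from the platform annotation, with 1 gene for 13513 probe sets, of which 13436 matched the reference gene table (TAIR10.1, used for names and neighbours).

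All 6 arrays were fitted with limma 3.58.1 in R 4.3.3, with 1 mean per group, 3 residual and 4.43 prior degrees of freedom, 4 contrasts and Benjamini-Hochberg adjustment over all probe sets. The procedure was run on simulated data with independent noise and changes of 1 or 2 log2 units, equal in both alleles. Smaller changes and variation shared between arrays were not simulated, so that run does not bear on them. The number of arrays limits the precision. The members and lists were chosen with earlier results of these data known. Named genes were all members, listed genes that passed or had the 2 smallest p-values, and the 3 nearest patterns per member that passed; the third gene of the calmodulin list and the chromosomal neighbours were added after the values were seen. A clock-list symbol that the reference gives to a lignin enzyme was left out. Alternatives were leaving out each array, fits of 2 groups, median centring, cyclic loess, a replicate block, array weights, no moderation, a robust and trended prior, a stricter threshold, testing probe sets with 1 gene, and a filter on dim probe sets (40th percentile). Tests used scipy 1.17.1, and figures matplotlib 3.10.9. Protein and promoter sequences, flower markers and the CAMTA3 transcript were not analysed here.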

Additional observations from a re-analysis of the deposited data

How the results depend on the processing

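The 7 genes had 408 values under alternatives, of which 370 kept their direction and side of the threshold, 27 kept their direction but no longer passed (15 for AT2G41090 and 12 for AT2G41410) and 11 changed sign. Only the values of these 2 genes against wild type had a pass to lose, so the 370 do not measure how stable the calls were. The threshold of 0.01 is not among the 408. AT2G41090 and AT2G41410 were the 2 members that passed in each comparison with wild type. With a threshold of 0.01 and in the unmoderated test 0 passed in each (unadjusted p under 0.05 in the moderated fit: 3, 2 and 4 of 7 for the mean, camta3-1 and camta3-2, beside 13.4%, 12.2% and 11.2% of all probe sets). In camta3-1, 1 passed when the groups compared alone were fitted, which is the same fit as leaving out either camta3-2 array. Over the fits that left out 1 array, 0 to 2 members passed in each of these comparisons; such fits assume that a lone array varies like the other groups. In camta3-1 it was 0 without camta3-1 replicate 1 and without either wild-type array, and 1 without either camta3-2 array. In camta3-2 it was 0 without either camta3-2 array or either wild-type array. AT2G41090 had adjusted p = 0.108 without camta3-1 replicate 1 in camta3-1, and 0.0112 without replicate 2.

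Sign changes came in values that had not passed. In fits leaving out 1 array, the log2 fold change was -0.26 to 0.0713 (mean), -0.25 to 0.0778 (camta3-1), -0.26 to 0.0648 (camta3-2) and -0.0445 to 0.0185 (between alleles) for CML43. It was -0.029 to 0.59 (mean) and -0.11 to 0.51 (camta3-1) for CML41, -0.0025 to 0.19 (camta3-1) for CML37, and -0.64 to 0.19 for CML42 and -0.23 to 0.0701 for AT2G41410 between the alleles. With median centring CML43 was at 0.0312 between the alleles. The cause was not tested.

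With a replicate block 2 members passed in each comparison with wild type, and the probe sets that passed numbered 493, 430 and 280 for the mean, camta3-1 and camta3-2, against 320, 246 and 167 without it. Deviations of same-numbered arrays correlated at 0.40 between the mutants, -0.04 between camta3-1 and wild type and 0.13 between camta3-2 and wild type. The arrays were not taken as paired in the main fit, because the labels do not say that a replicate number marks a shared batch. Whether same-numbered arrays shared a batch was not tested. Counts over all probe sets also moved at a threshold of 0.01 (83, 37 and 30), among probe sets with 1 gene, where fewer were tested (166, 112 and 67), in the unmoderated test (0, 0 and 0), in camta3-2 when 2 groups were fitted (270), and without 1 array (5 to 458, 2 to 333 and 5 to 270). Between the alleles, 1 to 7 passed without 1 array and 0 in the unmoderated test, against 1. CML37, CML38 and CML43 were below the signal filter and had no value under it.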
